A study of Mus musculus with 1 sample.

Results

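The genes described here are 42 mouse genes of the interferon response and of major histocompatibility complex (MHC) antigen presentation, out of 32285 genes in the count matrix. They were chosen by name as a fixed list and not by a cut on measured values, though earlier results of these data were known. All 42 names were found. They were measured in 1 single-cell RNA library of wild type, untreated gastric organoids, which are cultured balls of stomach epithelium without blood vessels or blood-derived cells. Per the labels' protocols, organoids were harvested on day 7 after plating and dissociated for 30 min at 37 °C in 0.05% trypsin-EDTA. The strain, age and number of donor animals are not given in the sources used here, and mutant organoids named in the series text were not analysed here. With 1 library there is no replicate, so no difference below carries a test, and intervals cover counting error only.

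Interferons are secreted proteins that bind receptors on neighbouring cells and, through JAK kinases and STAT transcription factors, switch on a shared set of interferon-stimulated genes. Type I and type III interferons act through a complex of STAT proteins with IRF9 that binds the interferon-stimulated response element (ISRE), and type II interferon acts through STAT dimers at the gamma-activated site (GAS). MHC class I molecules display peptides from inside the cell to CD8 T cells, are made by nearly every nucleated cell and are raised further by interferon, whereas MHC class II molecules are mostly made by professional antigen-presenting cells. In epithelium a low, tonic level of interferon-stimulated transcripts is commonly seen without infection.

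Transcripts were counted by unique molecular identifiers (UMIs). Of 1991 barcodes, 1892 showed 500 genes or more and no more than 20% of UMIs from mitochondrially encoded genes. Removal of 12 called doublets left 1880 cells with 890 to 47183 gene UMIs each (median 8476) and 19951439 gene UMIs in all. Levels are given as UMIs per 1000000 gene UMIs over these cells (CPM). Because the kit reads the 3′ end and counts each transcript once, levels of different genes were compared without dividing by length. Shares of cells with a UMI depend on depth and are therefore also given after thinning each of 1823 cells to 3000 UMIs, which left out 57 shallower cells. The share of cells with a UMI that free RNA could give was not measured, so such shares are not read as shares of expressing cells.

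The label calls these cells epithelial, and the epithelial markers Epcam and Krt8 had UMIs in 96.5% and 97.9% of cells. Leukocyte markers were close to absent. The 6 markers Ptprc, Cd3e, Cd3g, Cd79a, Nkg7 and Klrb1c had 3 UMIs together, in 3 cells, and 3 of the 6 had none. Among 10 myeloid markers, Itgam, Itgax, Tyrobp and Fcer1g had no UMI, and 195 of the 307 UMIs belonged to Cd68, a lysosomal gene, with 80 more from Lyz2, of which 53 lay in 1 cell. No cell had UMIs of 3 or more leukocyte or myeloid markers, and 8 cells had UMIs of 2.

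Promoter sequences, from RefSeq on GRCm38.p6, were found for 32 of the 42 genes and were searched from 250 bases before to 50 bases after the start of transcription. The ISRE core was searched on both strands as GAAA, any 2 bases and GAAA, and the GAS as TTC, any 3 bases and GAA, which reads the same on both strands. An ISRE core was present for 15 of the 32 genes (46.9%), against 3.99% of 27025 genes in the same table. By role it was present for 10 of 16 antiviral genes, 3 of 4 membrane effectors and 2 of 10 class I presentation genes. A GAS was present for 7 of the 32 (21.9%), against 9.55% of all genes. In the 250 upstream bases alone the counts were 12 (37.5%, against 3.46%) and 5 (15.6%, against 8.13%). A match describes letters and does not show binding. The 150 bases before the start are shown for 6 genes whose levels are compared below, 5' to 3' on the strand of the gene and ending at the base before the start, with ISRE core matches in capitals. Overlapping matches run together, as in Isg15, which has 3, and in Bst2, which has 2. In Ifit1 and Rsad2 the matches lie on the opposite strand and appear as the reverse complement. The upstream match of Bst2 also overlaps a GAS match.
B2m: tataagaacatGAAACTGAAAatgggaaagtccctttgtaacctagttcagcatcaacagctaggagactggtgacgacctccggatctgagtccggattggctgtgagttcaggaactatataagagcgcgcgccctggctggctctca
Isg15: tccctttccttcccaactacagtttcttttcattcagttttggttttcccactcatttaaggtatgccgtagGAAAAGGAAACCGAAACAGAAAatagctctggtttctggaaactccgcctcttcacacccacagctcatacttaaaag
Ifit1: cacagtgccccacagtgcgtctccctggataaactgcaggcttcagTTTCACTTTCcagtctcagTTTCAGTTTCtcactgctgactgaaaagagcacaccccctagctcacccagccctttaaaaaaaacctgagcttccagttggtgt
Rsad2: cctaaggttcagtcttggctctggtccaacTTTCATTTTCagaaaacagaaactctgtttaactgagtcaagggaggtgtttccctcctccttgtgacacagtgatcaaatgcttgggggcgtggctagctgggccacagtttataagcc
Bst2: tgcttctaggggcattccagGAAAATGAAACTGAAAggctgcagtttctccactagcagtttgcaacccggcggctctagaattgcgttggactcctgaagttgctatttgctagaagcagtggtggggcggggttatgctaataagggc
Ifitm2: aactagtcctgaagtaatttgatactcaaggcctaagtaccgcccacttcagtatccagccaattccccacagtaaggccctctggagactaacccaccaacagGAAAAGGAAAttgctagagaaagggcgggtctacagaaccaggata
These stretches lie at chr2:122147537-122147686 (plus strand, B2m), chr4:156200819-156200968 (minus strand, Isg15), chr19:34640739-34640888 (plus strand, Ifit1), chr12:26456453-26456602 (minus strand, Rsad2), chr8:71537473-71537622 (minus strand, Bst2) and chr7:140955962-140956111 (minus strand, Ifitm2). The RefSeq starts of Tap1 and Psmb9 lie 226 bases apart on opposite strands of chromosome 17, so each lies in the other's upstream region, whereas in GENCODE M21 these genes overlap.

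The 42 genes together held 36188 UMIs, or 1814 CPM (95% Poisson interval 1795 to 1833), and a median of 0.170% of the UMIs of a cell. All 5 class I genes were detected and summed to 731 CPM (719 to 743), and 97.8% of cells had at least 1 of their UMIs. The 5 membrane effectors summed to 809 CPM (796 to 821). The 14 antiviral effectors summed to only 110.2 CPM (105.7 to 115), the 6 processing genes to 62.5 CPM, the 5 transcriptional regulators to 69.3 CPM, the 3 RNA sensors to 26.8 CPM and the 4 class II genes to 4.91 CPM. Of the 42, 22 reached 100 UMIs, as did 8623 of all genes, whose median was 21.4 CPM, and 1, H2-Aa, had no UMI.

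**Figure D1:**
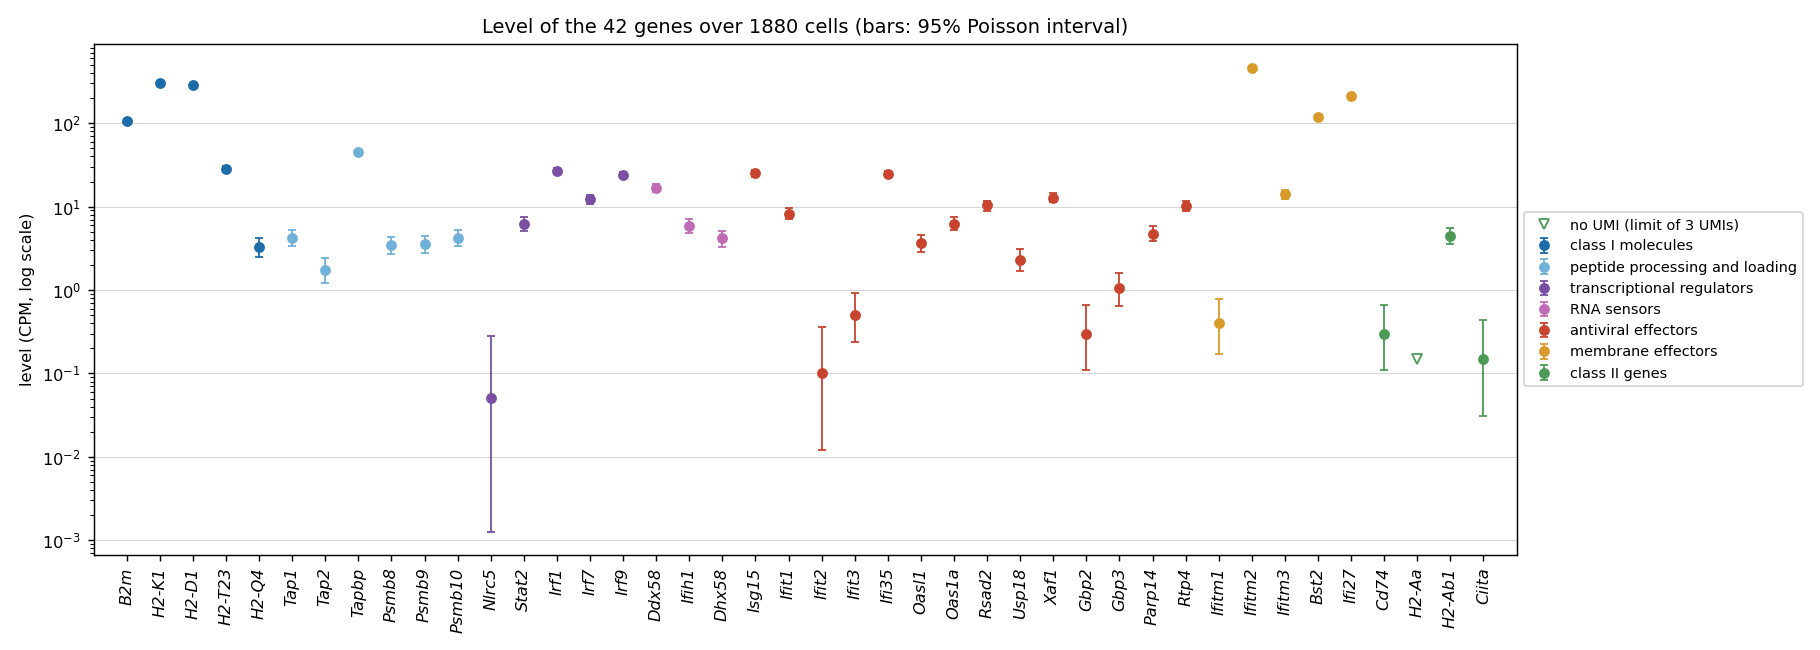
Level of each of the 42 genes over 1880 cells, on a log axis in CPM, coloured by role, with 95% Poisson intervals as bars. Ifitm2, H2-K1, H2-D1 and Ifi27 are the 4 highest, H2-Aa is drawn at the level that 3 UMIs would give (0.150 CPM), and Nlrc5 rests on 1 UMI.

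Transcripts of the classical class I heavy chains were seen in most cells. H2-K1 and H2-D1 are the classical class I heavy chains that bind peptides, and lie on chromosome 17 at chr17:33996017-34000347 and chr17:35262730-35267499 (GRCm38, GENCODE M21), as do 11 of the 42 genes. H2-K1 was at 308 CPM (299.9 to 315) and was seen in 87.6% of cells (57.4% after thinning). H2-D1 was at 286 CPM (279 to 294) and was seen in 87.4% (57.9%). Their intervals did not overlap, though their sequences are similar and reads of this family can be assigned uncertainly. B2m, which encodes the light chain shared by all class I molecules (chr2:122147686-122153083), was at 106 CPM (102 to 111) in 59.1% of cells (24.7% after thinning). The transcript of the shared light chain was thus counted at a lower level than either classical heavy chain. H2-T23, which encodes the non-classical molecule Qa-1 that is seen by natural killer cells, was at 28.0 CPM (25.7 to 30.4) in 23.1% of cells (7.68%). H2-Q4, another non-classical gene, was at 3.26 CPM (65 UMIs). The level of H2-K1 was 307 CPM in the cells whose highest multiplexing tag was CMO301 and 309 CPM in those with CMO302, and that of B2m was 106 CPM in both. The tags mark suspensions that were pooled, and the labels do not say which suspension each marks.

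Genes that make and load peptides were low apart from Tapbp. Tapbp encodes tapasin, which bridges class I molecules to the peptide transporter, and was at 45.2 CPM (42.3 to 48.3) in 33.4% of cells (11.7% after thinning). The transporter subunits were at 4.26 CPM for Tap1 (3.40 to 5.27, 85 UMIs) and 1.75 CPM for Tap2 (1.22 to 2.44, 35 UMIs). The 3 interferon-inducible immunoproteasome subunits were alike in level, at 3.46 CPM for Psmb8, 3.56 CPM for Psmb9 and 4.21 CPM for Psmb10, and their intervals overlapped. Their constitutive counterparts were far higher, at 189.5 CPM for Psmb5, 138 CPM for Psmb6 and 62.6 CPM for Psmb7. The proteasome activator genes Psme1 and Psme2 were at 91.1 and 69.1 CPM. The endoplasmic reticulum chaperones Calr, Canx and Pdia3, which also serve general protein folding, were at 247, 124 and 145 CPM, and Erap1, which trims peptides, was at 1.70 CPM.

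Transcriptional regulators of the response were present at modest levels, with the exception of Nlrc5, the class I transactivator, which had 1 UMI in 1 cell. Irf1, an activator induced by type II interferon, was at 26.7 CPM (24.5 to 29.1) in 21.9% of cells (7.35% after thinning). Irf9 and Stat2, partners in the factor that binds the ISRE, were at 24.0 CPM (21.9 to 26.3) and 6.22 CPM (5.17 to 7.41). Irf7, which amplifies type I interferon production, was at 12.3 CPM (10.8 to 13.9) in 9.95% of cells (3.29%). The cytosolic RNA sensors followed the order Ddx58 (RIG-I) at 16.7 CPM, Ifih1 (MDA5) at 5.91 CPM and the regulatory Dhx58 (LGP2) at 4.16 CPM, and the intervals of Ifih1 and Dhx58 overlapped (4.90 to 7.08 and 3.31 to 5.16).

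Almost no interferon transcripts were seen, while every receptor chain was. Of 10 interferon genes, Ifnb1, Ifna1, Ifna2, Ifna4, Ifna5, Ifnk, Ifng and Ifnl3 had no UMI, which allows a UMI in up to 0.160% of cells for each. The epithelial interferon Ifne had 4 UMIs and Ifnl2 had 1. The type I receptor chains Ifnar1 and Ifnar2 were at 9.22 and 31.3 CPM, the type II receptor chains Ifngr1 and Ifngr2 at 25.0 and 19.0 CPM, and the type III receptor chains Ifnlr1 and Il10rb at 5.16 and 14.7 CPM. Kinases Jak1, Jak2 and Tyk2 were at 50.02, 10.8 and 4.71 CPM. The feedback inhibitors Socs1 and Socs3 were at 3.96 and 21.3 CPM, and Nfkbia, a target and inhibitor of NF-kappaB, was at 201 CPM. Mx1, Mx2 and Mb21d1, which were also on the pathway lists, were not matched by name and are not analysed here.

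Among the 14 antiviral effectors, Isg15 and Ifi35 had the highest levels but were spread over cells very differently. Isg15 encodes a ubiquitin-like modifier and lies at chr4:156199424-156200818. Its level was 25.1 CPM (22.96 to 27.4), it was seen in 13.1% of cells (5.65% after thinning), and 1 cell held 30 of its UMIs. Ifi35, which encodes an interferon-induced leucine zipper protein, was at 24.8 CPM (22.6 to 27.0) in 21.1% of cells (7.73%) with at most 5 UMIs in a cell. At the same level, more cells therefore had a UMI of Ifi35 than of Isg15. Rsad2, which encodes the radical SAM enzyme viperin (chr12:26442746-26456452), was at 10.3 CPM (8.96 to 11.8) from only 2.98% of cells, with up to 72 UMIs in 1 cell. Without the 5 cells with most antiviral UMIs, described below, it was at 4.99 CPM (4.05 to 6.07). Its level was 7.30 CPM in cells tagged CMO301 and 14.1 CPM in cells tagged CMO302, which include the cell with 72. Ifit1, which binds foreign RNA caps, was at 8.22 CPM (7.01 to 9.58) in 4.36% of cells, with up to 20 UMIs. The pro-apoptotic gene Xaf1 was at 12.7 CPM, Rtp4 at 10.1 CPM, the RNA-degradation activator Oas1a at 6.27 CPM, Parp14 at 4.76 CPM, Oasl1 at 3.66 CPM, and Usp18, which removes ISG15 from proteins, at 2.31 CPM. At the low end, Gbp3 had 21 UMIs, Ifit3 had 10, the guanylate-binding gene Gbp2 had 6 and Ifit2 had 2. Ifit3 is near-identical to Ifit3b (8 UMIs) and Ifit1, Oas1a and Ifi27 also have close paralogues, so their counts are uncertain by the reads that the counting could not place.

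The membrane effectors held 44.6% of the UMIs of the 42 genes, and 3 of them were abundant. Ifitm2, which encodes a transmembrane protein that restricts virus entry, was the highest of the 42 at 460.2 CPM (450.9 to 469.7), and was seen in 91.9% of cells (71.2% after thinning). Its neighbours in the gene cluster on chromosome 7 were far lower. Ifitm3 was at 14.1 CPM (12.5 to 15.8) in 7.55% of cells (2.85%), and Ifitm1 had 8 UMIs. Ifi27 was at 215 CPM (208 to 221) in 72.0% of cells (43.2%). Bst2, which encodes tetherin, a protein that holds budding virus at the cell surface (chr8:71534255-71537456), was at 119 CPM (115 to 124) in 60.2% of cells (30.1%).

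Class II genes were almost silent. H2-Aa, the alpha chain of I-A, had no UMI (a UMI in up to 0.160% of cells), and the master regulator Ciita had 3 UMIs. Cd74, the invariant chain that escorts class II molecules, had 6 UMIs, of which 5 lay in 1 cell with no leukocyte marker UMI. H2-Ab1, the beta chain of I-A, was the exception at 89 UMIs in 83 cells (4.46 CPM, 3.58 to 5.49). It was thus counted without a UMI of its partner chain H2-Aa. H2-Eb1, the beta chain of the other class II molecule, I-E, had 1 UMI. The peptide-exchange genes H2-DMa and H2-DMb1 had 86 and 20 UMIs.

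Cells differed widely in a few transcripts, Rsad2, Ifit1, Isg15 and the membrane effector Ifitm3. The 19 cells with most UMIs of a gene (1% of cells) held 81.1% of the UMIs of Rsad2, 58.5% of Ifit1, 45.2% of Ifitm3 and 31.5% of Isg15, against 4.94% for H2-K1, 4.85% for H2-D1 and 4.60% for Ifitm2. This share is larger for genes of low level by counting alone, and at a like level it was 21.7% for Xaf1 and 23.3% for Rtp4. A measure that allows for level is the variance of Pearson residuals, which compare each cell with the UMIs its depth predicts. By it, Rsad2 varied more than 98.8% of the 8623 genes with at least 100 UMIs. Ifit1, Ifitm3 and Isg15 each ranked above 98.6%, Ifitm2 above 96.3%, Irf7 above 94.1% and H2-K1 above 91.0%. Other antiviral genes were spread over the range, from Xaf1 above 88.1%, Rtp4 above 80.7% and Ifih1 above 76.4% to Oas1a above 30.3%, Stat2 above 28.9% and the sensor Ddx58 above 3.90% of genes.

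As a measure of the antiviral genes together, the UMIs of 20 genes were summed per cell: the 14 antiviral effectors, the 3 sensors, Stat2, Irf7 and Irf9 (179.5 CPM, 173.7 to 186). No UMI of the 20 was found in 700 cells (37.2%, median depth 6935 UMIs), and 511 cells had 1. At the top, 9 cells (0.479% of cells) with 20 or more such UMIs held 10.8% of them, at a median depth of 23165 UMIs. The 8 cells with most are all epithelial by their markers (40 to 144 UMIs of epithelial markers, none of leukocyte markers). Cell 1 had 72 UMIs of Rsad2, 15 of Ifit1 and 12 of Isg15, but none of Irf7, Xaf1 or Bst2. Cell 2 was alike, with 20 of Ifit1, 16 of Rsad2, 9 of Isg15 and 1 of Bst2, in 9472 UMIs. Cell 3 differed from both. It had UMIs of 17 of the 20 genes, with 9 of Ifit1, 8 of Isg15, 7 of Xaf1 and 1 of Rsad2, and its 36 UMIs of Bst2 and 11 of B2m were the highest counts of these genes in any cell. The class I presentation genes made up 2764 CPM of cell 3, against 1034 in cell 1, 1056 in cell 2 and 691 in cell 4. Cell 4 had 17 UMIs of Isg15 and 16 of Rsad2, and cell 5 had 30 of Isg15 but 2 of Rsad2.

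**Figure D2:**
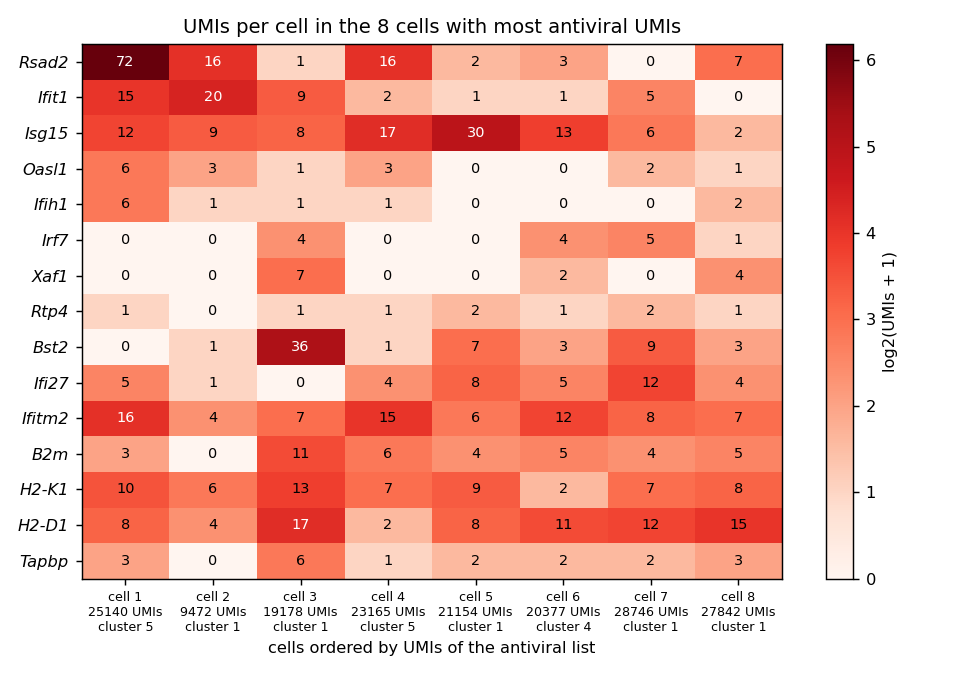
UMIs of 15 genes (rows) in the 8 cells with most antiviral UMIs (columns, with total UMIs and cluster), coloured by log2(UMIs + 1). Rsad2 reaches 72 UMIs in cell 1, where Bst2 has 0, while Bst2 reaches 36 in cell 3, where Rsad2 has 1.

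Expression of the antiviral genes varied together across cells, more strongly than pairs of genes at large. Over the 231 pairs of the 22 genes with at least 100 UMIs, the median Pearson correlation of residuals across 1880 cells was 0.0437, beside 0.00388 over all 37173753 pairs of 8623 genes. A correlation above 0.1 was found for 51 of the 231 pairs (22.1%), beside 0.624% of all pairs. Over the 66 pairs of the 12 antiviral genes the median was 0.0685, and 19 (28.8%) were above 0.1. In thinned cells these were 0.0150 and 4 (6.06%), beside 0.133% of all pairs. Those 4 were Ifit1, Rsad2 and Isg15 with each other and Isg15 with Rtp4 (0.140). All cells share 1 library and the counts are sparse, so correlations are given as a description. The strongest pairs were Ifit1 with Rsad2 (0.618), Isg15 with Rsad2 (0.428) and Isg15 with Ifit1 (0.378). These rest in part on few cells: without the 5 cells with most antiviral UMIs they were 0.317, 0.235 and 0.247. Ifih1 followed Ifit1 (0.289) and Rsad2 (0.253), but without those cells these were 0.151 and 0.0510, and in thinned cells -0.0106 and 0.0297.

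Bst2 correlated with Irf7 (0.223), Isg15 (0.221), Xaf1 (0.218), Ifit1 (0.213), B2m (0.203), Rtp4 (0.186) and H2-D1 (0.177), and its value with Rsad2 was 0.027, or 0.0701 without the 5 cells. In thinned cells the values of Bst2 with these 7 genes were between 0.0187 and 0.157. Class I genes correlated with each other at 0.158 for H2-K1 with H2-D1 and 0.145 for B2m with H2-D1, and the median over the 10 pairs of presentation genes was 0.108. In thinned cells these were 0.0331, 0.0682 and 0.0325. Between presentation and antiviral genes the median over 60 pairs was 0.0437. Ifitm2, whose upstream sequence shown above holds an ISRE core, had values with the 12 antiviral genes between -0.0561 (Xaf1) and 0.0838 (Ifi35). The lowest 3 of the 231 were among them, at -0.0561 with Xaf1, -0.0554 with Ddx58 and -0.0515 with Stat2, and in thinned cells these were -0.0436, 0.00876 and -0.0189. Ifitm2 correlated with Ifi27 (0.139) and Ifitm3 (0.138), and in thinned cells these were 0.0554 and 0.0661. With cells thinned to 3000 UMIs the median over the 231 pairs was 0.0139, beside -0.000231 for all genes, and 7 pairs (3.03%) were above 0.1, beside 0.133% of all pairs. Ifit1 with Rsad2 was then at 0.696, Isg15 with Rsad2 at 0.340 and Isg15 with Ifit1 at 0.324.

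**Figure D3:**
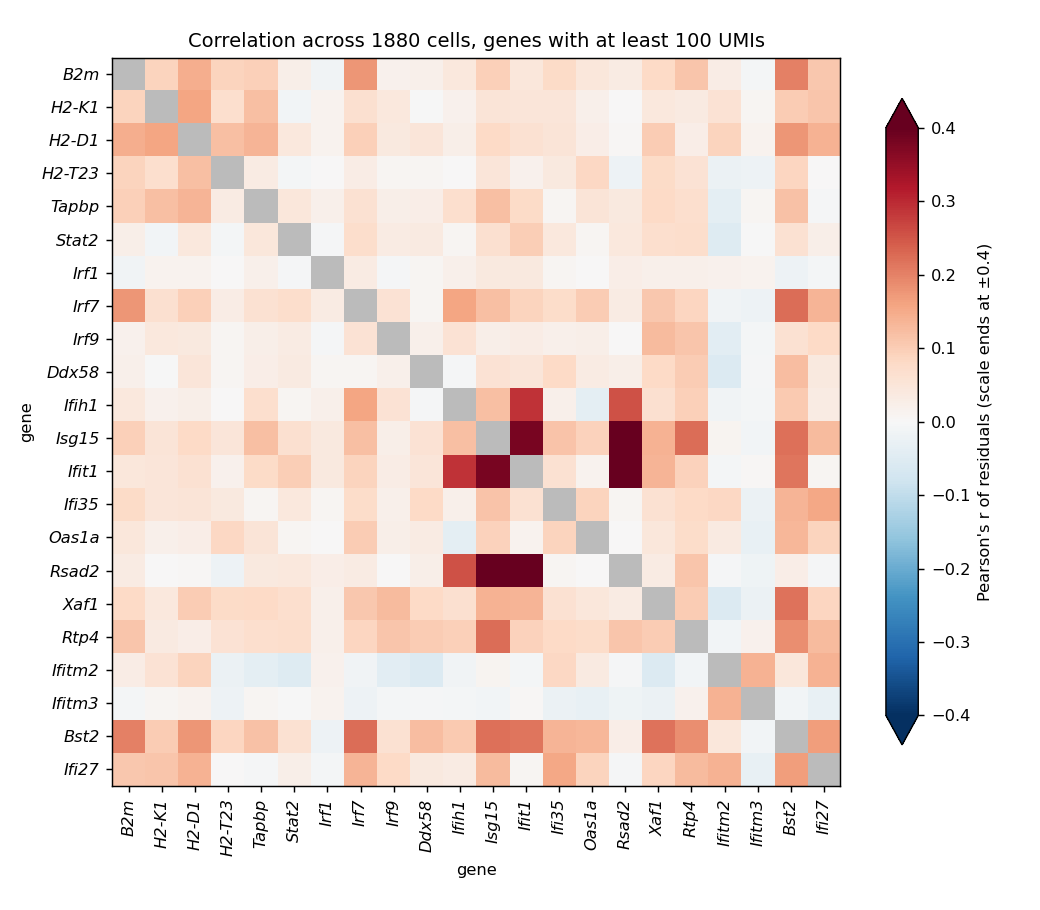
Pearson's r of residuals between the 22 genes with at least 100 UMIs, across 1880 cells, on a scale that ends at ±0.4. Ifit1, Rsad2 and Isg15 form the darkest block (0.378 to 0.618), Bst2 shows a row of weaker positive values, and Ifitm2 and Ifitm3 are pale against the antiviral genes.

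Presence of transcripts was also compared in cells thinned to equal depth. Isg15 had a UMI in 42.1% of the 19 cells with Rsad2 (95% Clopper-Pearson interval 20.3% to 66.5%), against 5.27% of the cells without it (4.28% to 6.40%). Bst2 was found in 46.6% of the 103 cells with Isg15 (36.7% to 56.7%) and in 29.1% of those without (27.0% to 31.3%). Rtp4 was found in 11.7% against 1.57%. For H2-K1 the shares were 58.3% with Isg15 and 57.4% without, and for B2m 24.3% and 24.8%, which differ by less than their intervals. Between class I genes, H2-D1 was found in 60.3% of cells with H2-K1 (57.2% to 63.2%) and 54.8% of cells without it (51.2% to 58.3%). B2m was found in 23.4% of cells with H2-K1 and 26.5% of cells without it, and in 26.0% with H2-D1 and 22.9% without. The intervals of these 3 pairs overlapped. Bst2 was found in 30.2% of cells with Ifitm2 and 29.9% of cells without it.

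To describe what else was high in cells rich in antiviral transcripts, cells were ranked by the share of their UMIs from the 20 antiviral genes, and the top 188 cells (10%) were set against the other 1692. The 20 genes made the ranking and are not read as a result. Cells of the top set had a median of 5 antiviral UMIs and as few as 1. The lowest share in the top set was 0.0411%, 80 cells lay within 10% of that boundary, and the sets are a range and not cell types. Median depths were similar, at 8191 and 8490 UMIs. The top set held 41.3% of the antiviral UMIs and 9.42% of all UMIs. Epithelial markers summed to 4413 CPM in the top set and 4101 CPM in the rest, myeloid markers to 12.8 and 15.7 CPM, and leukocyte markers had 1 and 2 UMIs. The part of these markers in the results was not tested.

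Class I genes were modestly higher in the antiviral-high cells. The 11 presentation genes were at 982 CPM against 774 CPM, a ratio of 1.27 (95% conditional exact interval 1.21 to 1.33). The light chain B2m was at 153 against 101 CPM (1.51, 1.33 to 1.71), and at 1.23 (0.940 to 1.60) in thinned cells. H2-T23 was at 38.3 against 26.9 CPM (1.42, 1.09 to 1.82), and at 1.59 (0.960 to 2.51) in thinned cells. H2-D1 was at 352 against 279 CPM (1.26, 1.16 to 1.37) and H2-K1 at 339 against 304 CPM (1.11, 1.02 to 1.21), and in thinned cells they were at 1.09 (0.928 to 1.28) and 1.25 (1.07 to 1.44). Tapbp was at 64.4 against 43.2 CPM (1.49, 1.22 to 1.81; 1.24, 0.802 to 1.84, in thinned cells), and the immunoproteasome gene Psmb8 at 9.05 against 2.88 CPM (3.14, 1.70 to 5.53), from 17 and 52 UMIs. The other immunoproteasome genes were at 1.40 (0.610 to 2.83) for Psmb9 and 1.92 (1.0006 to 3.45) for Psmb10, and the transporter genes at 1.74 (0.882 to 3.16) for Tap1 and 1.24 (0.318 to 3.51) for Tap2. The chaperones Calr (0.814), Canx (0.826) and Pdia3 (0.866) were lower, and the constitutive proteasome genes together were at 1.07 (0.995 to 1.16).

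Membrane effectors split. Bst2 was at 234 CPM in the antiviral-high cells and 108 CPM in the rest (2.18, 1.96 to 2.42), and Ifi27 at 325 and 203 CPM (1.60, 1.47 to 1.74). Ifitm2 was slightly lower, at 427 and 464 CPM (0.922, 0.856 to 0.991), and the interval of Ifitm3 held 1 (0.698, 0.413 to 1.11). Past a ratio of 1.5, 3 of the 10 genes of the 42 that were outside the ranking and had at least 100 UMIs were higher (B2m, Bst2 and Ifi27), beside 2.06% of all 8611 such genes. None of the 10 was lower, beside 5.88%. The median ratio was 1.34 over the 10 and 0.983 over all genes. With Isg15 left out of the ranking, 1 of the 10 was past 1.5, beside 2.19% of all genes, and Ifi27 was at 1.41.

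**Figure D4:**
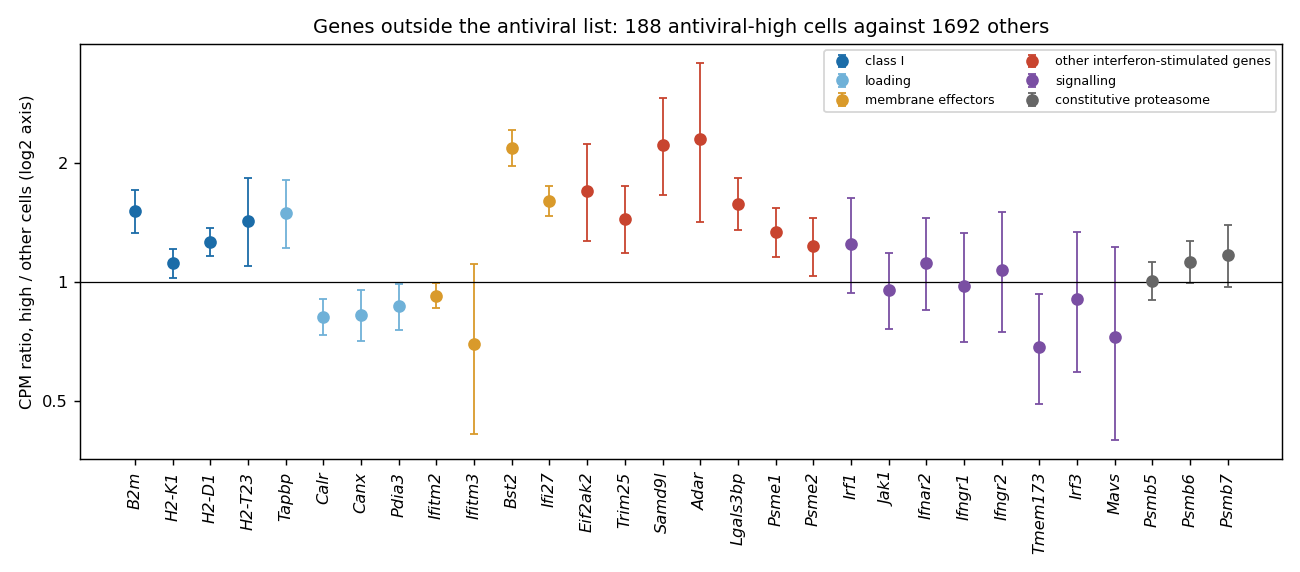
Ratio of CPM in 188 antiviral-high cells to 1692 other cells, on a log2 axis, for chosen genes with at least 100 UMIs that took no part in the ranking, with 95% conditional exact intervals as bars. Adar, Samd9l and Bst2 lie highest, and the 4 class I genes shown lie between 1.11 and 1.51. Calr, Canx, Pdia3, Ifitm2 and Tmem173 lie below 1 with their intervals. Ifitm3, Mavs, Irf3, Jak1 and Ifngr1 also lie below 1, with intervals that hold 1.

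Interferon-stimulated genes outside the 42 were also higher in the antiviral-high cells. The 17 further such genes were together at 507 against 323 CPM (1.57, 1.46 to 1.68). The RNA-editing gene Adar was at 2.29 (1.42 to 3.57), Samd9l at 2.21 (1.66 to 2.92), the RNA-activated kinase Eif2ak2 at 1.70 (1.27 to 2.23) and Lgals3bp at 1.57 (1.35 to 1.82). These were the 4 past 1.5 among 29 pathway genes with at least 100 UMIs, beside 2.06% of all genes, and none of the 29 was past it downward, beside 5.88%. Ifi44, with 71 UMIs, was at 7.04 (4.24 to 11.5), and the feedback inhibitor Socs1, with 79, at 2.64 (1.45 to 4.57). Receptor chains together were at 1.07 (0.925 to 1.24). The DNA-sensing adaptor Tmem173 (STING) was lower, at 0.684 (0.492 to 0.929).

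Among all genes outside the 42 with at least 100 UMIs, the 10 with the highest ratios included further interferon-stimulated genes: Apol9a at 8.59 (5.75 to 12.8), Oas3 at 6.91, Oasl2 at 4.79, Ifi27l2b at 4.77 and Parp9 at 3.01. The interferon-inducible p200 family members Mndal, Ifi211 and Ifi203 were at 2.98, 2.94 and 2.90, and Lgals9 at 2.89. Apol9a, Oas3 and Ifi211 had 56, 71 and 85 UMIs outside the antiviral-high cells, so that they reached 100 UMIs only with those of the high set. The highest ratio, of the chemokine Ccl5 (113), came from 1 cell that held 106 of its 115 UMIs.

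Antiviral genes were in turn higher in cells rich in class I transcripts. Cells were ranked by the 11 presentation genes, and the top 188 (boundary 0.131% of UMIs, 132 cells within 10% of it) were set against the rest. These cells were shallower, at a median of 6709 against 8669 UMIs. Epithelial markers summed to 4721 CPM against 4084 CPM (1.16, 1.13 to 1.18), myeloid markers to 18.4 and 15.2 CPM, and leukocyte markers had 0 and 3 UMIs. Nfkbia was at 299.9 against 193 CPM (1.55, 1.40 to 1.72). The part of depth and of these genes in the results was not tested beyond the thinned values. The antiviral list was at 282 against 171 CPM (1.65, 1.48 to 1.83) and at 1.45 (1.20 to 1.75) in thinned cells. Irf7 had the highest ratio among the 12 antiviral genes with at least 100 UMIs, at 35.4 against 10.4 CPM (3.39, 2.44 to 4.62), and was at 2.04 (0.993 to 3.87) in thinned cells. Xaf1 was at 2.35 (1.63 to 3.31), Rtp4 at 2.11 (1.37 to 3.14), Ifit1 at 1.95 (1.18 to 3.06) and Isg15 at 1.91 (1.45 to 2.48). In thinned cells these 4 were at 1.40 (0.667 to 2.65), 2.12 (0.848 to 4.67), 1.93 (0.654 to 4.76) and 1.35 (0.775 to 2.23), and each interval held 1. Ddx58 was at 0.973 and Irf1 at 1.103 (0.788 to 1.51). Rsad2 was at 5.44 against 10.7 CPM (0.508, 0.216 to 1.02), but 106 of its 198 UMIs outside the top set lay in 4 cells. Without the 5 cells with most antiviral UMIs its ratio was 0.956 (0.374 to 2.05), and in thinned cells it was 4.16 (1.91 to 8.54), from 12 and 26 UMIs. A UMI of Rsad2 was seen in 3.72% of the top cells and 2.90% of the others. Without the 5 cells Ifit1 was at 1.57 (0.809 to 2.81). Bst2 was at 1.87 (1.65 to 2.10) and Ifi27 at 1.45 (1.31 to 1.60). Bst2 was at 1.22 (0.953 to 1.54) in thinned cells.

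Past a ratio of 1.5, 7 of 17 genes of the 42 outside the ranking list were higher, beside 4.58% of all genes, and 2 were lower, beside 6.14%. In thinned cells 1 of the 7 with at least 100 UMIs was higher, beside 5.17% of all genes. The 7 higher genes were Irf7, Isg15, Ifit1, Oas1a, Xaf1, Rtp4 and Bst2. Among them Oas1a (1.59, 0.839 to 2.77) had an interval that held 1, and in thinned cells it had 0 UMIs in the top set and 42 in the rest. The 2 lower were Rsad2, which was at 0.956 without the 5 cells, and Ifitm3 (0.561, 0.286 to 0.996), which was at 1.11 in thinned cells. In 5 equal sets of 376 cells along this ranking, the antiviral list was at 114, 157, 163, 216 and 244 CPM and the membrane effectors at 702, 720.1, 785, 871 and 969.5 CPM, from lowest to highest. Median depths were between 7287 and 9658 UMIs. Intervals overlapped between sets 2 and 3 and between sets 4 and 5 for the antiviral list, and between sets 1 and 2 for the membrane effectors. Along the antiviral ranking 700 cells tied at 0 UMIs and filled set 1 and most of set 2, so the division between these sets is arbitrary. In the 5 sets of that ranking the presentation list was at 734, 724, 792, 763 and 932 CPM and the membrane effectors at 767, 739.5, 756, 828 and 952 CPM. Both were highest in the last set. Outside the 42, the highest ratios were those of Crct1 (5.03) and Cnfn (3.91), genes of cornified epithelium, then Ptcra, Ly6m and the surface mucin gene Muc5ac (2.90). Rptor (2.90), Enpp2, Spire2 and Mxd1 were also among the 10, as was Mndal again, at 2.54. Muc5ac, Rptor and Spire2 reached 100 UMIs only with those of the high set.

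Whether the cells' state goes with these genes was described over clusters made without the 42 genes. Leiden clustering gave 6 clusters of 669, 488, 313, 225, 119 and 66 cells, called here by number and leading genes. Cluster 1 was led by Ly6m, Ndrg1 and Mgarp, cluster 2 by Aox3, Scgb3a1 and Trf, cluster 3 by Cxcl2, Cxcl5 and Mgat4c, cluster 4 by Psca, Prss22 and Gmpr, cluster 5 by the mitotic genes Knl1, Aspm and Hmmr, and cluster 6 by Cyba, Reg3g and Gsta2. Class I presentation was nearly even, from 749 CPM (698 to 804) in cluster 6 to 818 CPM (791 to 846) in cluster 3. H2-K1 was between 286 and 326 CPM in every cluster. Membrane effectors ranged more widely, from 652 CPM (633 to 672) in cluster 1 to 1073 CPM (1026 to 1122) in cluster 4, and the antiviral list from 106 CPM (87.4 to 128) in cluster 6 to 252 CPM (227 to 279) in cluster 5. Leukocyte markers had at most 1 UMI in any cluster, and myeloid markers were between 6.51 CPM (cluster 4) and 20.9 CPM (cluster 2).

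Cluster 6 (66 cells) stood apart, with low antiviral genes and high Ifitm3. Ifitm3 was at 109 CPM (90.1 to 131) against 8.88 CPM in the other clusters, a ratio of 12.3 (9.61 to 15.7), with a UMI in 43.9% of its cells, and in 23.4% after thinning (13.8% to 35.7%) against 1.09% to 3.27% elsewhere. Psmb10 was at 16.4 against 3.54 CPM (4.64, 2.55 to 7.996, from 17 UMIs) and Tap1 at 9.67 against 3.96 CPM (2.44, 1.12 to 4.74, from 10 UMIs). Ifi27 was at 69.6 against 223 CPM (0.313, 0.244 to 0.395), Bst2 at 69.6 against 122 CPM (0.570, 0.444 to 0.721) and Isg15 at 5.80 against 26.2 CPM (0.222, 0.0810 to 0.486). No Rsad2 UMI was seen. In thinned cells Isg15 was at 0.611 (0.124 to 1.82) and Psmb10 at 1.72 (0.0410 to 11.1). The antiviral list was at 0.580 (0.475 to 0.701), or 0.712 (0.454 to 1.07) in thinned cells. Presentation was at 0.941 (0.875 to 1.01), and none of the 66 cells was among the 188 antiviral-high cells, which allows up to 4.55% by the limit of 3 counts (Clopper-Pearson upper bound 5.44%).

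In cluster 6, 1 of 22 tested genes of the 42 was past 1.5-fold higher and 11 were lower, beside 20.4% and 17.0% of all genes. The 11 were Stat2, Irf7, Irf9, Isg15, Ifit1, Oas1a, Rsad2, Xaf1, Rtp4, Bst2 and Ifi27. These cells differed from the rest in other ways. They were deeper (median 14009 UMIs, against 7194 to 11354 in the other clusters) and held 71 UMIs of Y-linked genes, against 1 to 5 in each other cluster. A UMI of the cell cycle genes Mki67 or Top2a was found in 59.1% of them. That share was 13.8% to 37.4% in clusters 1 to 4 and 88.2% in cluster 5. The part of these differences in the result was not tested. At a coarser clustering (resolution 0.3) the cluster with most Cyba and Gsta2 had 146 cells, in which the antiviral list was at 1.16 (1.05 to 1.29), Isg15 at 1.04, Ifi27 at 0.687 and Ifitm3 at 7.02.

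**Figure D5:**
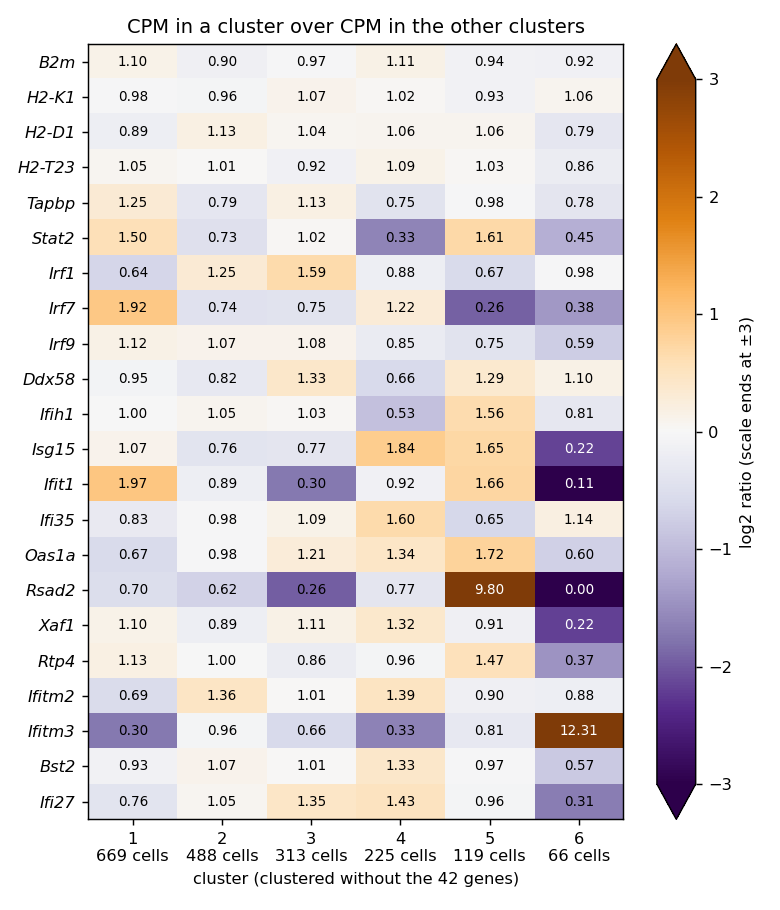
Ratio of CPM in each of 6 clusters (columns) to the other clusters together, for the 22 genes with at least 100 UMIs, coloured by log2 ratio on a scale that ends at ±3. Class I genes are pale in every cluster, Ifitm3 is at 12.3 in cluster 6, and Rsad2 is at 9.80 in cluster 5, which rests on 2 cells.

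The high antiviral level of cluster 5 rested on 2 cells. Rsad2 was at 61.5 CPM there against 6.27 CPM elsewhere (9.80, 7.36 to 13.0), from 90 UMIs, of which cell 1 held 72 and cell 4 held 16. Without the 5 cells with most antiviral UMIs anywhere, Rsad2 was at 1.41 CPM (0.269, 0.0321 to 0.997), and the antiviral list at 152 CPM (0.910, 0.789 to 1.05, against 1.45 with them). Before they were left out, 6 of 22 genes were past 1.5-fold higher and 2 lower, beside 10.3% and 7.60% of all genes, and afterwards 2 of 21 were higher (Stat2 and Oas1a) and 4 lower, beside 10.2% and 7.79%, so that the higher count was near the share of all genes. Irf7 was at 3.42 CPM with them (0.263, 0.0847 to 0.623), from 5 UMIs. After thinning it had a UMI in 3.39% of the cells of cluster 5 (0.931% to 8.45%), which overlapped every other cluster (2.29% to 4.48%).

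Among the other clusters, the counts past the fold were mixed. They exceeded the share of all genes for higher genes in clusters 1 and 4 and lower genes in cluster 3. The rest were below it, and each count rests on 4 genes or fewer. In cluster 1, 2 of 22 genes were past 1.5-fold higher, beside 5.38% of all genes, and 2 were lower, beside 14.3%. Irf7 was at 17.9 CPM (1.92, 1.48 to 2.49) and Ifit1 at 12.1 CPM (1.97, 1.43 to 2.71, or 1.61 without the 5 cells). After thinning, Irf7 had a UMI in 4.06% of the cells of cluster 1 (2.67% to 5.89%), which overlapped every other cluster (2.29% to 4.48%). Of the 164 UMIs of Ifit1, 84 lay in cluster 1, so that it reached 100 UMIs only with those of this cluster. There, Irf1 was at 0.636 and Ifitm3 at 0.302. Of the 89 UMIs of H2-Ab1, 55 lay in cluster 1, at 7.93 CPM (3.03, 1.94 to 4.80). In cluster 4, Isg15 at 42.9 CPM (1.84, 1.43 to 2.35) and Ifi35 at 37.5 CPM (1.60, 1.22 to 2.06) were higher, beside 2.44% of all genes, and 4 genes were lower (Stat2, Ddx58, Ifih1 and Ifitm3), beside 23.4%. After thinning, Isg15 was seen in 8.97% of these cells (5.56% to 13.5%). The intervals of all other clusters, at 4.21% to 7.84%, reached into that range. By CPM, cluster 4 was also the highest for Ifi27 (295 CPM), Ifitm2 (618 CPM) and Bst2 (154 CPM). After thinning, Ifi27 was seen in 49.3% of its cells and in 52.6% of those of cluster 3. Bst2 was then seen in 32.7% of them (26.6% to 39.3%), against 20.3% to 31.7% elsewhere, with overlapping intervals. In cluster 3, Irf1 was at 37.8 CPM (1.59, 1.31 to 1.92) and was the only gene past 1.5-fold higher, beside 10.9% of all genes. Ifit1, Rsad2 and Ifitm3 were lower there, beside 3.13%. Without the 5 cells Rsad2 was at 0.577 (0.295 to 1.04), with too few UMIs for the count. Then 2 of 21 genes were lower, Ifit1 and Ifitm3, beside 3.09%. The comparison for Ifitm3 includes cluster 6, where it was high. Outside cluster 6, cluster 3 had the highest share of cells with an Ifitm3 UMI (8.95%, or 3.27% after thinning). In cluster 2, Rsad2 alone was past the fold (0.622), beside 8.92% lower and 2.30% higher among all genes, but without the 5 cells Rsad2 was at 1.61 (1.02 to 2.48), from 99 UMIs in all clusters, too few for the count.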

How the data were processed

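Single-cell RNA from the gastric organoids was captured and tagged at its 3′ end on the 10x Genomics platform, per the labels' protocols. The deposited matrix holds raw UMI counts per gene and barcode, made by the authors with Cell Ranger 6.1.2, per the file headers, and mapped to GRCm38/mm10, per the submitters' processing notes. The gene annotation is not given in the sources used here, and coordinates of genes are those of GENCODE M21. Multiplexing tags were kept out of library sizes.

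Barcodes with 500 or more genes and 20% or less mitochondrially encoded UMIs were kept, and 12 doublets called by Scrublet (0.634%, expected 1.59%) were removed. Levels were summed over cells with exact Poisson 95% intervals, shares had Clopper-Pearson intervals, and ratios had conditional exact binomial intervals. Correlations used Pearson residuals with an overdispersion parameter of 100. Ratios past 1.5 were counted over genes with at least 100 UMIs. Clusters (Leiden, resolution 0.6, 30 components, 15 neighbours, 2000 variable genes) were made without the 42 genes, cell cycle genes, sex-linked genes and mitochondrially encoded genes. Python 3.11.15, numpy 2.4.6, scipy 1.17.1, scanpy 1.11.5 and leidenalg 0.10.2 were used, and the ratio code was tested on simulated data.

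The text names all 42 genes, genes of the pathway lists (others enter only the lists' counts and sums), the 10 other genes with the highest ratio in each ranking and up to 5 leading genes of each cluster. Chosen after their values were seen are the 8 cells described one by one, the cells with most Ccl5, Cd74, Lyz2 and Ifitm3 UMIs, the chemokine gene Cxcl10 and the values without the 5 cells with most antiviral UMIs. The genes and lists were chosen with earlier results of these data known. A gene of the pathway lists and a gene of the leukocyte markers are left out of the lists and not reported here. With 1 library there was no test. The alternatives were a stricter cell filter, kept doublets, thinning, equal weight per cell, each tag alone, other shares of cells ranked high, a ranking without its most abundant gene, other clusterings, other folds and gene filters, log values and upstream bases alone.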

Additional observations from a re-analysis of the deposited data

Results flagged for a closer look

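Besides genes, the matrix holds counts of 12 multiplexing tags, which the comparisons use only to split cells. They made up 21.4% of all UMIs (5501432 UMIs), and 1 of 2 tags was the highest in each kept cell. CMO301 was the highest tag in 56.2% of the 1880 cells (53.9% to 58.5%), or 1057 cells, and CMO302 in 823. Of the 188 antiviral-high cells, 95 carried CMO301 and 93 carried CMO302. Of the 188 presentation-high cells, 96 carried CMO301 and 92 carried CMO302.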

How the results depend on the processing

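Of 244 values recomputed for 29 results under 17 alternatives, 5 reversed. Among the levels, shares and counts that answer a comparison, 75 stayed within counting error or 1.5 times and 22 moved. Among values of single genes and of the peptide processing and class II lists, 113 stayed and 29 moved. The cause was not tested. No paired analysis was possible because the series' labels give 1 wild type library and no replicate numbers.

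In cells thinned to 3000 UMIs, membrane effectors were at 841 CPM, the median correlation was 0.0139, 1 of 7 genes was past 1.5 in presentation-high cells (5.17% of all genes), the antiviral ratio there was 1.45 and Ifitm3 reversed to 1.11, and the antiviral ratio in the Cyba and Gsta2 cluster was 0.712 (0.454 to 1.07). With equal weight per cell, the antiviral list was at 172 CPM and membrane effectors at 829.6 CPM. In CMO301 cells these were 171 and 824 CPM, and in CMO302 cells 190.0 and 789.7 CPM. In CMO302 cells 4 of 12 genes were past 1.5 in presentation-high cells (6.67% of all genes), Ifitm3 reversed to 1.18 there, and presentation in the Cyba and Gsta2 cluster was at 1.02. Without the 5 cells with most antiviral UMIs, a choice made after seeing the data, the antiviral list was at 166 CPM.

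With the top 5% of cells the antiviral ratio in presentation-high cells was 2.11, and with the top 20% it was 1.47, where Ifitm3 reversed to 1.11. In antiviral-high cells the count past the fold was 1 of 10 with Isg15 left out of the ranking (2.19% of all genes), 8 of 21 with genes of 1 UMI or more (11.3%) and 1 of 10 at a fold of 2 (0.279%). In presentation-high cells it was 14 of 30 with genes of 1 UMI or more (13.2%) and 3 of 17 at a fold of 2 (0.441%). At resolution 0.3 the Cyba and Gsta2 cluster had 146 cells, and its antiviral ratio (1.16) and Isg15 ratio (1.04) reversed. Depth limits the 20 of the 42 genes with fewer than 100 UMIs, whose intervals are wide.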

Other observations

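Single cells that held most UMIs of an immune gene were looked at after their values were seen. The cell with 106 of the 115 Ccl5 UMIs had 5 antiviral UMIs among 9138 gene UMIs and lay in cluster 3. The cell with 5 of the 6 Cd74 UMIs lay in cluster 1 (12672 gene UMIs), and the cell with 53 of the 80 Lyz2 UMIs in cluster 2 (14722 gene UMIs). None of these cells had a UMI of a leukocyte marker. The chemokine gene Cxcl10 had 8 UMIs in cell 1, 8 in cell 4 and 1 in cell 5, and none in the other 5 of the 8 cells with most antiviral UMIs. The cell with most Ifitm3 UMIs (19 among 11025) had no antiviral UMI and lay in cluster 6.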
